A study of Arabidopsis thaliana with 20 samples.

Results

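Dwarf plants that overexpress PPD3 were set against wild type, with 3 samples of each, 6 of the 20 samples of the series. The T+ dwarf group holds Arabidopsis thaliana in the Col-0 background with genotype label PPD3-OX T+ and phenotype label dwarf, at bolting. WT holds wild-type plants, also at bolting and all of Col-0 by source name, although the ecotype field of WT 3 reads Col-1. T+ normal (n = 3) carries the same transgene without the dwarf phenotype. Gen1 dwarf (n = 3) holds siblings of T+ plants that are labelled as lacking the transgene, and Gen2 dwarf (n = 5) and Gen2 large (n = 3) are progeny of Gen1. The labels do not say which promoter drives the transgene, how many independent lines there were, or whether plants were pooled. The p-values below therefore measure the spread between these libraries, which may be technical. All aboveground tissue was sequenced, and every gene was compared.

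PsbP-domain proteins are nuclear-encoded and act on the inner membranes of chloroplasts, where the founding members belong to the oxygen-evolving complex of photosystem II. PPD3 is a member of this family that the study's title places in sensory plastids, a plastid type of the epidermis and vascular parenchyma. Dwarf Arabidopsis plants commonly differ from taller ones in cell division, cell expansion, defence and flowering genes, so these pathways were read as groups beside the single genes.

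Gene counts were 71118082 to 82898658 in T+ dwarf and 79962022 to 117753467 in WT. Levels are in CPM, counts scaled to a common library size by edgeR. A count of 0 in 1 of these libraries allows up to 0.0255 to 0.0422 CPM, which covers counting error only. Nuclear photosystem genes summed to 19298 to 24177 CPM in T+ dwarf and 22498 to 30256 CPM in WT. The 10 root markers summed to 0.464 to 2.33 CPM in T+ dwarf and 0.461 to 0.682 CPM in WT, and 3 of them had no count in any of the 6 libraries.

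EdgeR called 11 of 21703 tested genes at an adjusted p under 0.05, or 0.0507% of them. Of these, 7 were higher in T+ dwarf (0.0323%) and 4 were lower (0.0184%). In all 11 the 3 T+ dwarf samples lay outside the range of the 3 WT samples, which 13.3% of all tested genes also did. The median log2 difference over all tested genes was −0.01. An unadjusted p under 0.05 was reached by 2577 genes, 11.9% of those tested (5.81% higher and 6.06% lower in T+ dwarf). DESeq2 called 114 of 20989 genes (0.543%), 42 higher (0.2%) and 72 lower (0.343%), and the 11 were among them.

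**Figure D1:**
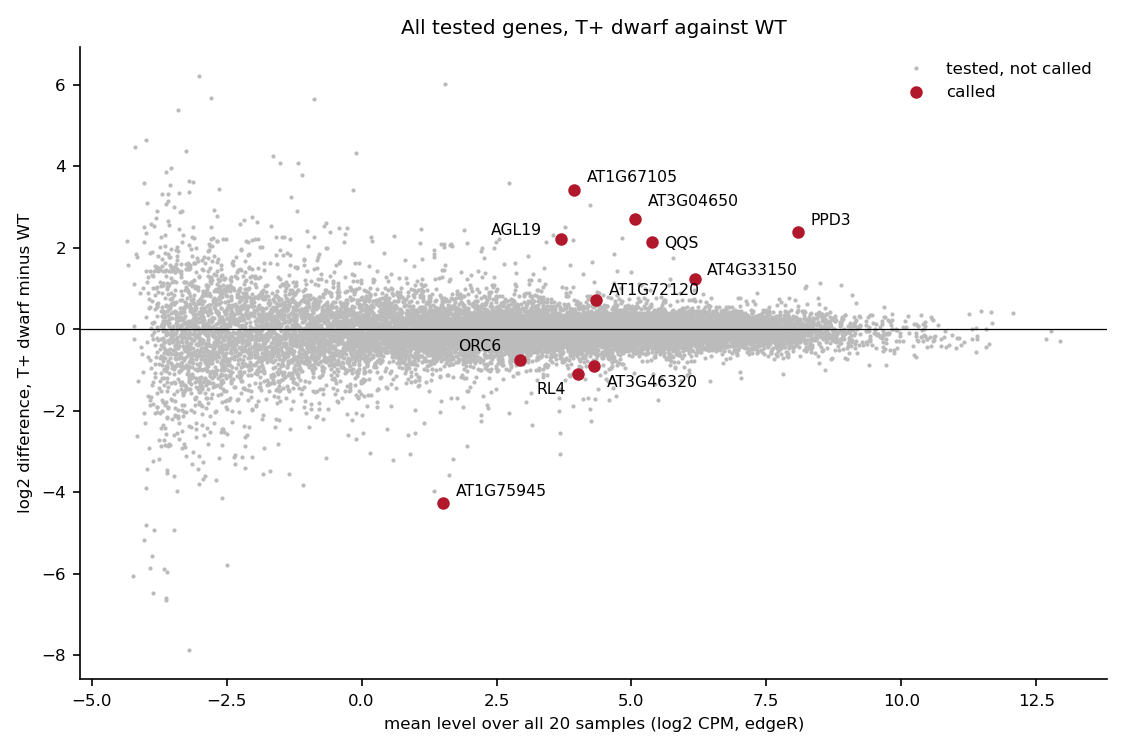
Each point is 1 of the 21703 tested genes, with its mean level over all 20 samples (log2 CPM) on the horizontal axis and the log2 difference T+ dwarf minus WT on the vertical axis. The 11 called genes are in red, 7 above 0 and 4 below, with PPD3 the most highly expressed of them.

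Of the called genes, 3 besides PPD3 passed the test in each of 6 fits that left out 1 library. These are AT3G04650, AT1G75945 and QQS, and the bases just before their annotated starts are shown because no library decides their calls. QQS is known for levels that vary between natural strains along with DNA methylation of repeats upstream of it, so stretches of 10 or more bases that occur again in the same window are in capitals. Sequences are from RefSeq build TAIR10.1, written 5′ to 3′ on the strand of the gene. They are chr3:1261684-1261856 (plus strand, the 173 bases between AT3G04650 and AT3G04640), chr1:28515917-28516166 (minus strand) and chr3:12348797-12349046 (plus strand).
AT3G04650: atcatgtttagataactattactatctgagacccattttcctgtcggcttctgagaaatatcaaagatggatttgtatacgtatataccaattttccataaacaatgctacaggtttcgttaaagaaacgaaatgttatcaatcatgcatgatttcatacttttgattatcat
AT1G75945: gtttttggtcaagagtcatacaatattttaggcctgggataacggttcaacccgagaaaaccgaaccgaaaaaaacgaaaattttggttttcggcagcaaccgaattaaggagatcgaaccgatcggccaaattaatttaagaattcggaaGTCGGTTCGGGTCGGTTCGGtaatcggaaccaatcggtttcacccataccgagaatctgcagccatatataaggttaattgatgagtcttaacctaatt
QQS: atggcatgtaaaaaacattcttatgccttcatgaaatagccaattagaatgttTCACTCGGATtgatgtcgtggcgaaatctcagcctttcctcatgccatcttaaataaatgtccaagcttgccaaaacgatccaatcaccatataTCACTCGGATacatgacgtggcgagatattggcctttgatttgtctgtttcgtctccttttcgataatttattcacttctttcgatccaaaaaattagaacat
A repeat of 10 bases stood in the windows of QQS and AT1G75945, as in 28.5% of 27443 windows of 250 bases before protein-coding genes. The 173-base window of AT3G04650 had none, while 17.2% of windows of that length have one.

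PPD3 (AT1G76450, chromosome 1, 28684551 to 28686244) is the transgene's target and checks the labels. It had 747, 381 and 647 CPM in T+ dwarf 1 to 3, against 118, 93.9 and 125 CPM in WT 1 to 3. All 3 T+ dwarf samples were above every WT sample, and T+ dwarf 2 stood lowest among them. The difference was 5.28-fold (log2 2.4 ± 0.19 SE, 95% interval 2.00 to 2.80, edgeR adjusted p = 1.33e-06). The count cannot separate the native gene from the transgene. AT1G76460, an RNA-binding protein gene that overlaps its end, averaged 37.1 ± 9.54 CPM in T+ dwarf and 32.6 ± 7.10 CPM in WT (SD, n = 3 each), with overlapping groups.

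The remaining called genes separate by how the other 4 groups of the series lie. The contrast that chose the genes did not use the levels of those groups. Their spread did enter the calls, through the estimate shared by all 20 samples. In 4 of the 11, the 3 WT samples lay apart from all 17 other samples. In 5, the 11 dwarf samples of T+, Gen1 and Gen2 lay apart from the 9 samples of normal, large and WT plants. The margin was narrow for AT3G46320, with dwarf samples up to 19.5 CPM and the others from 19.8 CPM. For ORC6 these limits were 7.51 and 8.04 CPM. PPD3 and RL4 followed neither division. These divisions are descriptions, and the T+ dwarf and WT samples in them are the ones that chose the genes. The share of all tested genes that follow either division was not counted, so whether 4 and 5 of 11 are many cannot be told.

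AT3G04650 (chromosome 3, 1261857 to 1264687) is annotated as an oxidoreductase with a FAD/NAD(P)-binding fold. It had 33.1, 35.1 and 37.0 CPM in T+ dwarf, against 5.40, 4.57 and 6.00 CPM in WT. The T+ dwarf samples were tightly grouped and far above WT, by 6.59-fold (log2 2.72 ± 0.16, edgeR adjusted p = 9.45e-09). Over the 17 samples that are not WT the gene ranged between 27.9 and 54.2 CPM, so plants without the transgene were high as well. Its neighbour AT3G04640, a glycine-rich protein gene that starts 173 bases away on the other strand, had 1.59, 1.42 and 2.45 CPM in T+ dwarf and 4.51, 4.70 and 7.77 CPM in WT, and was not called (log2 −1.63 ± 0.62, adjusted p = 0.349).

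AT1G75945 (chromosome 1, 28515245 to 28515916), which codes for an uncharacterized protein, had the largest difference of the 11. Its levels were 1.52, 0.492 and 0.431 CPM in T+ dwarf, against 14.5, 15.7 and 16.7 CPM in WT. Every T+ dwarf sample was lower than every WT sample, and the gene was 19.1-fold lower (log2 −4.26 ± 0.52, 95% interval −5.36 to −3.16, edgeR adjusted p = 0.0011). Leaving out 1 library, the difference ran from −5.07 (33.6-fold lower, without T+ dwarf 1) to −3.94 (15.3-fold lower, without T+ dwarf 3). None of the 17 samples outside WT exceeded 1.52 CPM. T+ dwarf averaged 0.814 ± 0.611 CPM, above T+ normal at 0.198 ± 0.126 CPM (SD, n = 3 each). That difference passed the test too (log2 2.02 ± 0.53, adjusted p = 0.0164). SKP1, a ubiquitin-ligase subunit gene 602 bases away, had 119.6 ± 19.3 CPM in T+ dwarf and 139.6 ± 23.0 CPM in WT, with overlapping groups.

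QQS (AT3G30720, chromosome 3, 12349047 to 12349933), an Arabidopsis-specific gene that affects the division of carbon between starch and protein, had 35.8, 50.9 and 30.5 CPM in T+ dwarf. WT had 10.5, 8.14 and 7.57 CPM. The groups did not overlap, and the level was 4.46-fold higher in T+ dwarf (log2 2.16 ± 0.28, edgeR adjusted p = 0.00214). The 17 samples that are not WT held 28.9 to 69.0 CPM. Of 20 starch metabolism genes, 0 were called, and their median log2 difference was −0.02. BAM1, a beta-amylase, had 101, 88.1 and 92.4 CPM in T+ dwarf, against 57.8, 79.0 and 78.0 CPM in WT (log2 0.39 ± 0.14, adjusted p = 0.341).

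AT1G67105 (chromosome 1, 25057479 to 25058264), a non-coding RNA, had 17.1, 39.8 and 15.9 CPM in T+ dwarf and 3.76, 2.02 and 0.961 CPM in WT. The groups stood apart, although both were wide (log2 3.42 ± 0.57, edgeR adjusted p = 0.0343). Every sample outside WT lay between 7.21 and 39.8 CPM. The call held in 1 of the 6 fits that left out a library, with adjusted p up to 0.155 and log2 differences of 2.87 (without T+ dwarf 2) to 4.01 (without WT 1).

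**Figure D2:**
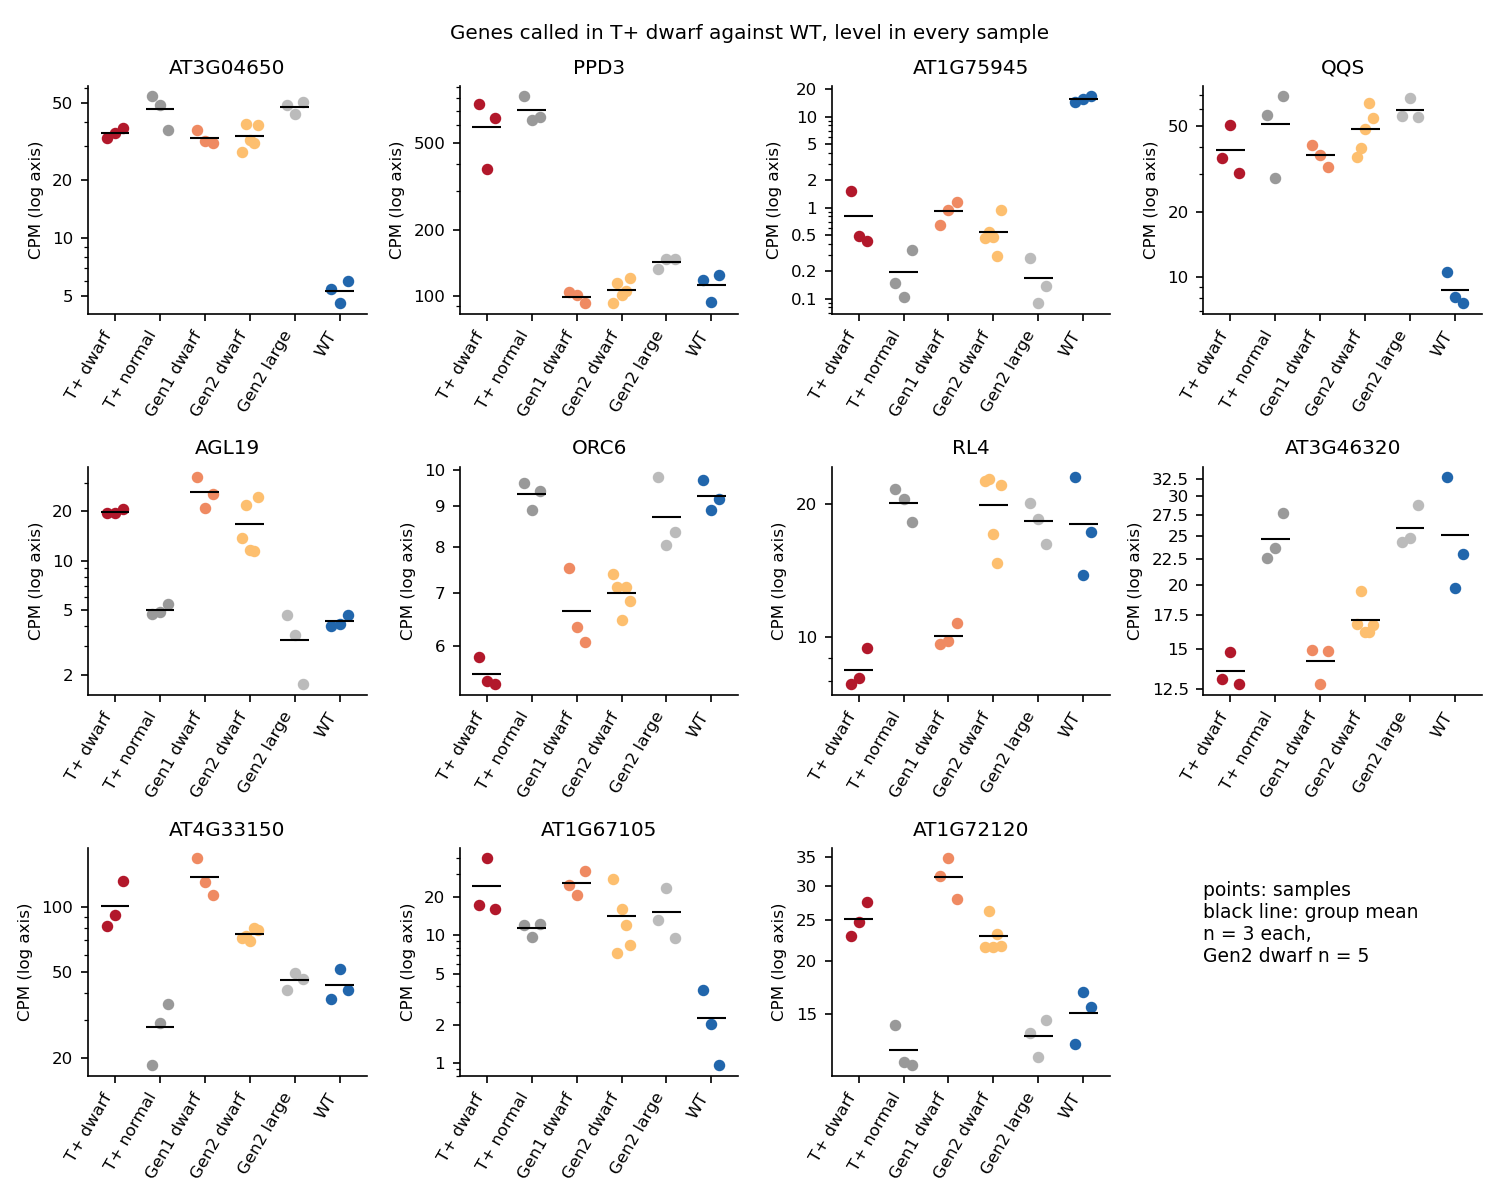
CPM on log axes for the 11 called genes in all 20 samples, 1 panel a gene, with 1 point a sample and a black line at each group mean. WT stands apart from all other groups for AT3G04650, AT1G75945, QQS and AT1G67105, and the dwarf groups stand apart from the others for AGL19, ORC6, AT3G46320, AT4G33150 and AT1G72120. The margin is narrow for AT3G46320 and ORC6.

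AGL19 (AT4G22950, chromosome 4, 12023824 to 12028004) encodes a MADS-box transcription factor that promotes flowering and is kept silent by Polycomb proteins. It had 19.5, 19.5 and 20.7 CPM in T+ dwarf, against 4.00, 4.11 and 4.68 CPM in WT. The gap between the groups was far wider than the spread within either (4.67-fold, log2 2.22 ± 0.31, edgeR adjusted p = 0.00412), and without WT 1 the adjusted p was 0.0669. The 11 dwarf samples of the series held 11.5 to 32.3 CPM, and the 9 others 1.76 to 5.43 CPM. T+ dwarf exceeded T+ normal (log2 1.99 ± 0.31, adjusted p = 0.000748), whereas against Gen1 dwarf the difference was −0.40 ± 0.29 (adjusted p = 0.997).

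AT4G33150 (chromosome 4, 15985174 to 15991633) codes for the bifunctional enzyme lysine-ketoglutarate reductase and saccharopine dehydrogenase, which opens lysine breakdown. Its levels were 81.3, 91.7 and 131 CPM in T+ dwarf and 37.2, 51.8 and 41.3 CPM in WT. The groups did not overlap (2.34-fold, log2 1.22 ± 0.21, edgeR adjusted p = 0.0269). AT1G72120 (chromosome 1, 27132014 to 27134101), a transporter gene of the major facilitator superfamily, had 22.9, 24.6 and 27.6 CPM in T+ dwarf against 12.8, 16.9 and 15.6 CPM in WT (log2 0.73 ± 0.13, adjusted p = 0.0354). Both genes were also higher in T+ dwarf than in T+ normal, by 1.88 ± 0.21 and 1.02 ± 0.13 on the log2 scale. Of 6 fits without 1 library, AT4G33150 was called in 2 and AT1G72120 in 1, with adjusted p up to 0.282 and 0.351, both without WT 1.

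ORC6 (AT1G26840, chromosome 1, 9298670 to 9300800), a subunit of the complex that marks origins of DNA replication, had 5.81, 5.41 and 5.36 CPM in T+ dwarf, against 9.70, 8.91 and 9.19 CPM in WT. Replicates were close and the groups well apart (1.68-fold lower, log2 −0.75 ± 0.12, edgeR adjusted p = 0.018). AT3G46320 (chromosome 3, 17019785 to 17020428), a histone gene, had 13.1, 14.8 and 12.7 CPM in T+ dwarf and 32.7, 19.8 and 23.1 CPM in WT (log2 −0.90 ± 0.15, adjusted p = 0.0222). RL4 (AT2G18328, chromosome 2, 7964326 to 7964995), a small MYB-like protein of the RADIALIS family, had 7.84, 8.10 and 9.47 CPM in T+ dwarf and 22.9, 13.8 and 17.3 CPM in WT (log2 −1.09 ± 0.18, adjusted p = 0.0203). All 3 genes were lower in every T+ dwarf sample than in any WT sample. ORC6 and RL4 were each called in 1 of 6 fits without 1 library and AT3G46320 in 2, with adjusted p up to 0.156, 0.182 and 0.158. With only the 6 samples in the fit, ORC6, RL4, AT3G46320, AT4G33150, AT1G72120 and AT1G67105 were not called (edgeR adjusted p of 0.257 to 0.448).

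Setting T+ dwarf against T+ normal asks what separates dwarf from normal plants that both carry the transgene, and 3255 genes (15%) were called there. Among the 11 genes, 7 were called, 6 of them in the direction seen against WT and 1, AT1G75945, in the other. ORC6 differed by −0.75 ± 0.12, RL4 by −1.24 ± 0.18 and AT3G46320 by −0.87 ± 0.15. Against Gen1 dwarf, siblings without the transgene, edgeR called 1 gene of all tested (0.00461%), which was PPD3 (log2 2.58 ± 0.19, adjusted p = 8.72e-07). These comparisons share the T+ dwarf samples with the one against WT, so they are not independent of it.

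The next 13 genes by p-value that lay apart between the groups, at adjusted p of 0.0654 to 0.168, were not called. Of these, 5 had higher and 8 lower values in T+ dwarf. DESeq2 called all 13, but on the same counts that chose them, so its calls are no separate evidence. RD20, a caleosin of lipid droplets that responds to drought, had 138, 169 and 182 CPM in T+ dwarf, against 96.7, 95.8 and 108 CPM in WT (log2 0.70 ± 0.15, edgeR adjusted p = 0.157). PI4K GAMMA 7, a phosphoinositide 4-kinase, had 189.9, 177 and 158 CPM in T+ dwarf and 100.2, 119 and 123 CPM in WT (log2 0.62 ± 0.11). AT5G10625, a flowering-promoting factor-like gene, had 6.64, 3.37 and 3.18 CPM in T+ dwarf and 1.02, 0.858 and 1.28 CPM in WT. These 3 genes were higher in each T+ dwarf sample than in any WT sample. Values were lower in T+ dwarf for CYP78A8, a cytochrome P450, at 1.79, 1.32 and 1.35 CPM against 4.39, 2.59 and 4.90 CPM in WT, and for the shugoshin gene AT3G44960, at 2.25, 1.76 and 2.1 CPM against 5.15, 3.16 and 3.65 CPM in WT. AT3G54750 (log2 −0.45), AT4G28310 (−0.77), the histone gene AT1G09200 (−0.62), AT1G74458 (−2.07) and, near the detection limit, VDD (−3.15) and AT3G13403 (−3.16) were the other lower ones. AT4G24200 and AT1G28580 were both at a log2 difference of 0.46. MSH1, which guards organelle genomes, had 16.2, 14.9 and 16.0 CPM in T+ dwarf and 12.1, 17.2 and 16.3 CPM in WT, with overlapping groups (log2 0.05 ± 0.15, adjusted p = 0.916). The 11 genes of organelle genome maintenance had 0 calls and a median of −0.04.

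Genes were then read as 23 pathway lists, of which 4 held a called gene and 19 none. The medians below are of log2 differences T+ dwarf minus WT over the tested members, to be read against −0.01 over all tested genes. Groups lay apart with T+ dwarf higher in 6.92% of all tested genes and with T+ dwarf lower in 6.4%. Of all 21703 tested genes, 10472 had positive and 11231 negative differences. Members of a list are read in the same 6 libraries and can move together, so their signs are not separate observations.

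Cell division and growth genes were mostly on the lower side in T+ dwarf. All 19 DNA replication genes had negative log2 differences (median −0.26), 1 of them called, and in 9 the groups lay apart. After ORC6 came the licensing factor CDC6, with 4.13, 5.74 and 5.62 CPM in T+ dwarf and 8.38, 7.53 and 9.78 CPM in WT (log2 −0.73 ± 0.18, edgeR adjusted p = 0.208). The replicative helicase subunit MCM4 had 16.3, 15.6 and 18.2 CPM in T+ dwarf, against 23.1, 21.3 and 21.4 CPM in WT (−0.39 ± 0.11, adjusted p = 0.286). For both genes T+ dwarf lay below WT without overlap. The other origin recognition genes differed less than ORC6. Mean CPM in T+ dwarf and WT was 8.37 and 10.6 for ORC3, 8.09 and 9.75 for ORC4 and 6.74 and 7.95 for ORC1B. These means were 3.63 and 4.03 for ORC2, 1.75 and 1.92 for ORC1A and 14.1 and 14.2 for ORC5. Summed over the list, T+ dwarf had 264 ± 21.9 CPM, Gen1 dwarf 258 ± 7.13, T+ normal 327 ± 11.4, Gen2 large 353 ± 12.5 and WT 321 ± 8.11 CPM (SD, n = 3 each). Gen2 dwarf had 289.7 ± 28.7 CPM (n = 5), and its range of 265 to 335 CPM overlapped that of WT, 316 to 331 CPM.

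All 16 mitotic cell cycle genes had negative differences as well (median −0.47), and 0 were called. Their groups lay apart in 7 genes, among them the cyclin CYCD3;1 at 14.4, 13.6 and 13.5 CPM in T+ dwarf against 26.6, 17 and 16.6 CPM in WT. The list summed to 110.3, 116 and 139 CPM in T+ dwarf and 198, 142 and 163 CPM in WT, with WT 1 the highest of the 6 libraries. Loci annotated as histones or as histone superfamily proteins were added as a group after the values were seen. The group is wider than histones, since it holds the transcription factor LEC1. Of 44 tested, 38 had negative differences (median −0.43), 1 was called and 20 lay apart with T+ dwarf lower. HTB2, a histone H2B gene, had 52.3, 46.4 and 44.3 CPM in T+ dwarf and 120.0, 57.8 and 71.0 CPM in WT (log2 −0.80 ± 0.18, adjusted p = 0.168). Histone genes have near-identical copies, and their single values are uncertain for that reason.

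Expansins loosen cell walls during growth. Of 12, 9 had negative differences (median −0.37) and 0 were called. EXPA5 had 42.9, 45.0 and 37.7 CPM in T+ dwarf, against 52.6, 51.8 and 57.3 CPM in WT, without overlap (log2 −0.37 ± 0.12, adjusted p = 0.298). Among 5 RADIALIS-like genes, 4 were negative (median −1.03) and RL4 was called. RL3 had 2.39, 2.66 and 1.81 CPM in T+ dwarf and 5.12, 5.65 and 3.23 CPM in WT (−1.03 ± 0.24, adjusted p = 0.168). RL2 had 0.0490, 0.281 and 0.396 CPM in T+ dwarf, against 3.45, 0.252 and 2.36 CPM in WT, with WT 2 as low as T+ dwarf. RL5 and RL6 stood at log2 differences of −0.46 ± 0.49 and 0.05 ± 0.34. The gibberellin (16 tested, median −0.09) and brassinosteroid (12 tested, median 0.06) pathways, whose mutants are classic dwarfs, held 0 calls. ROT3, a brassinosteroid synthesis P450, had 9.75, 7.93 and 7.86 CPM in T+ dwarf and 4.69, 6.20 and 5.14 CPM in WT (0.67 ± 0.26, adjusted p = 0.349).

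**Figure D3:**
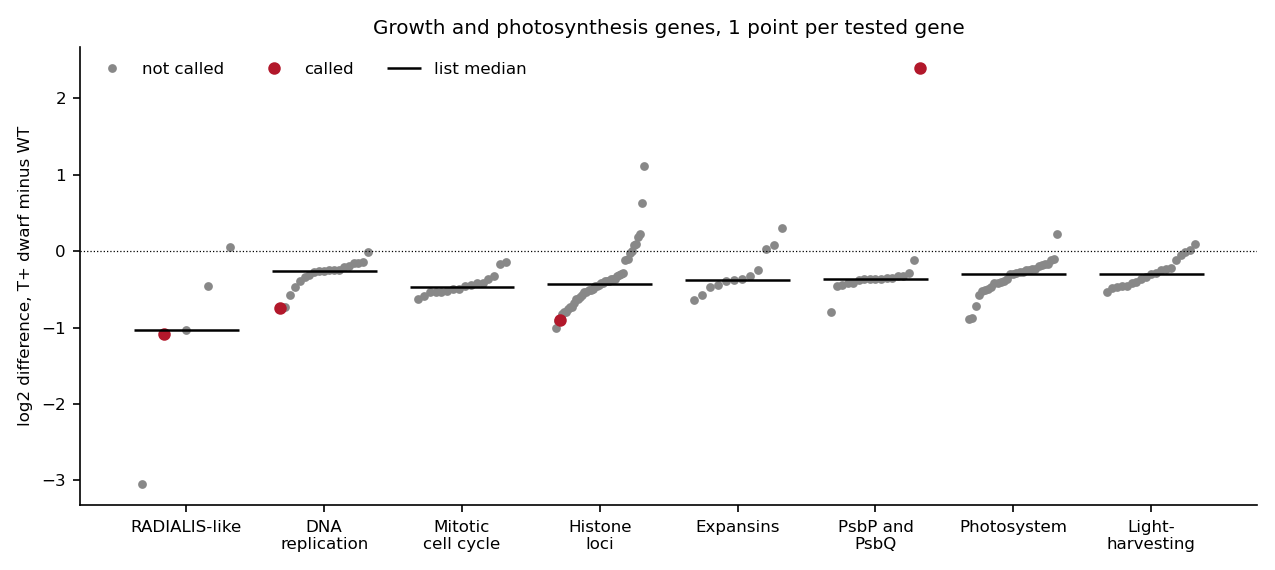
Each point is a tested gene, at its log2 difference T+ dwarf minus WT, in 8 gene groups, with called genes in red and the group median as a line. Every DNA replication and mitotic gene is below 0, and PPD3 is the 1 PsbP or PsbQ gene above it.

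In the family of PPD3, the 16 other PsbP and PsbQ genes all had negative differences, between −0.80 and −0.12, and 0 of these were called. Their mean log2 level relative to the WT mean was −0.44, −0.21 and −0.45 in T+ dwarf and 0.14, −0.31 and 0.17 in WT, so the groups overlapped at WT 2. The oxygen-evolving complex subunit PSBP1 had 1551, 2088 and 1778 CPM in T+ dwarf, against 2573, 1860.0 and 2348 CPM in WT (log2 −0.32 ± 0.17, adjusted p = 0.464). WT 2 lay inside the T+ dwarf range for this gene. PQL3, a PsbQ-like gene of the chloroplast NDH complex, was the member other than PPD3 whose groups lay apart, at 4.74, 4.19 and 3.45 CPM in T+ dwarf and 7.05, 4.88 and 9.68 CPM in WT (−0.80 ± 0.28, adjusted p = 0.32). The other subfamily members had log2 differences of −0.42 (PPD6), −0.37 (PPD5), −0.35 (PPD1), −0.36 (PPL1), −0.38 (PPL2), −0.44 (PQL1) and −0.41 (PQL2). PSBQ1 stood at −0.37, PSBQ2 at −0.29, PSBP2 at −0.12, and the PsbP-family loci AT3G05410, AT1G77090, AT5G27390 and AT2G28605 at −0.45, −0.32, −0.37 and −0.35.

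Photosystem and electron transport subunits had negative differences in 28 of 29 genes (median −0.30), light-harvesting proteins in 17 of 19 (−0.30) and chlorophyll synthesis in 14 of 16 (−0.17), with 0 called in each. As mean log2 levels relative to the WT mean, the photosystem genes stood at −0.40, −0.15 and −0.46 in T+ dwarf and 0.08, −0.25 and 0.17 in WT, and the light-harvesting genes at −0.55, −0.03 and −0.26 in T+ dwarf and 0.22, −0.21 and −0.01 in WT. WT 2 lay inside the T+ dwarf range in both. The chlorophyll genes stood at −0.20, −0.13 and −0.07 in T+ dwarf and −0.09, −0.22 and 0.31 in WT, where WT 3 alone was above T+ dwarf and WT 2 was the lowest of the 6. FD2, the main leaf ferredoxin, had 313, 421 and 338 CPM in T+ dwarf, against 760.1, 460.0 and 762 CPM in WT (log2 −0.89 ± 0.28, adjusted p = 0.286). PETE2, a plastocyanin, had 639, 775 and 609 CPM in T+ dwarf and 1196, 792 and 904 CPM in WT (−0.52 ± 0.18, adjusted p = 0.32). In both genes the groups lay apart by a small margin at WT 2. LHCA5 had 63.3, 76.9 and 74.4 CPM in T+ dwarf, against 119.8, 87.7 and 89.8 CPM in WT (−0.47 ± 0.14, adjusted p = 0.286). HEMA1, the glutamyl-tRNA reductase that opens chlorophyll synthesis, had 78.6, 78.4 and 69.8 CPM in T+ dwarf and 128, 65.5 and 157 CPM in WT. Without WT 2, HEMA1 (log2 −0.90, edgeR adjusted p = 0.0261) and the photosystem genes PSAN and PSBTN were called lower. WT 2 was the lowest WT sample in each of these genes. Leaving it out therefore widened the differences, and these calls are no separate evidence.

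Over the iron deficiency list, WT 2 stood with T+ dwarf and away from WT 1 and WT 3. Plants short of iron raise the bHLH factors of subgroup Ib and the regulator BTS, and lower the iron-storage ferritins. Of 10 tested iron deficiency genes all had positive differences (median 1.08), and 0 were called. IMA1, IMA2 and IMA3 were not on the list as read, since the annotation does not carry these symbols at their loci. BHLH38 had 22.1, 35.7 and 60.3 CPM in T+ dwarf, against 0.452, 19.3 and 0.884 CPM in WT. BHLH100 had 31.4, 47.9 and 45.0 CPM in T+ dwarf and 0.723, 24.5 and 1.82 CPM in WT. FRO3, a ferric reductase gene, had 134, 128 and 130.4 CPM in T+ dwarf, against 26.2, 103 and 46.8 CPM in WT (log2 1.15 ± 0.36, adjusted p = 0.289). In each of these genes WT 2 was close to T+ dwarf and WT 1 and WT 3 were low.

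With every library kept, edgeR and DESeq2 both called 0 of the 10 iron genes. Without WT 2, edgeR called 207 of 21990 genes (0.941%), 82 higher (0.373%) and 125 lower (0.568%), and 8 of the 10 iron genes were among the higher ones. WT 2 stood with T+ dwarf on this list, so leaving it out widens these differences by construction. The iron and ferritin calls of this fit are therefore no separate evidence. BHLH38 then differed by 5.93 on the log2 scale (adjusted p = 0.00143), BHLH39 by 5.17, BHLH100 by 5.07, BHLH101 by 2.93, FRO3 by 1.86, BTS by 1.66, OPT3 by 1.26 and PYE by 0.95. NAS1 and NAS4, which make the iron chelator nicotianamine, were not called at 0.58 and 0.97. Ferritin differences were negative for all 4 genes (median −0.59), with 0 called. FER1 averaged 44.0 ± 5.94 CPM in T+ dwarf and 72.3 ± 24.1 CPM in WT (SD, n = 3 each), and FER4 was called lower without WT 2 (log2 −1.29, adjusted p = 0.0313). Of the other groups, BHLH38 averaged 35.9 ± 20.3 CPM in Gen1 dwarf, 2.33 ± 1.45 in T+ normal and 1.58 ± 0.668 in Gen2 large (SD, n = 3 each), and 2.44 ± 0.813 CPM in Gen2 dwarf (n = 5). Summed over the list, T+ dwarf had 1139.8 ± 106 CPM, Gen1 dwarf 1008 ± 169, T+ normal 657 ± 196, Gen2 large 393 ± 1.98 and WT 601 ± 388 CPM (SD, n = 3 each). Gen2 dwarf, at 496 ± 95.4 CPM (n = 5), lay with the groups that are not dwarf. Over all tested genes WT 2 was not the most distant WT library. The SD of its log2 difference from the mean of the other 2 was 0.547, against 0.608 for WT 1 and 0.702 for WT 3. What set WT 2 apart on the iron list was not tested.

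**Figure D4:**
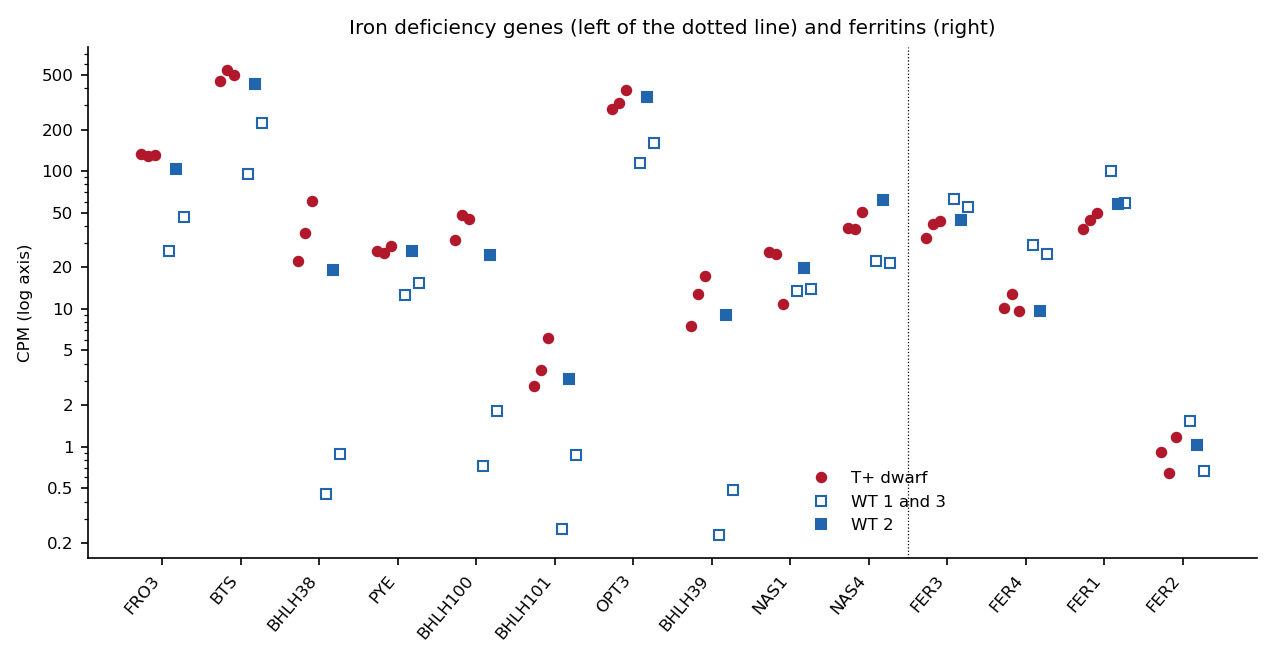
CPM on a log axis for 10 iron deficiency genes and 4 ferritins, with T+ dwarf samples as red circles left of the WT samples as blue squares, WT 2 filled. For BHLH38, the lowest T+ dwarf sample is at 22.1 CPM, near WT 2 at 19.3 CPM, while WT 1 and WT 3 are under 1 CPM.

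Flowering-time regulators (24 tested) had 1 call, AGL19, a median of 0.35, and 7 genes apart with T+ dwarf higher. FUL, a MADS-box gene of meristem identity, had 6.74, 6.10 and 13.1 CPM in T+ dwarf, against 4.35, 3.88 and 3.91 CPM in WT (log2 1.1 ± 0.31, adjusted p = 0.286). SOC1, the floral integrator, had 92.8, 93.9 and 102 CPM in T+ dwarf and 70.8, 81.5 and 77.6 CPM in WT (0.33 ± 0.19, adjusted p = 0.496). AGL42 had 39.7, 34.7 and 32.2 CPM in T+ dwarf, against 23.6, 18.8 and 16.9 CPM in WT (0.85 ± 0.36, adjusted p = 0.386). All 3 lay apart, and none passed the test. Polycomb genes, which silence AGL19, had 0 of 7 called and a median of 0.05. Of 16 floral organ genes 12 were tested, 9 with positive and 3 with negative differences, and 0 were called. Their median was 1.25, or 0.82 without WT 3 and 2.03 without WT 1. In 4 of them T+ dwarf lay above WT without overlap, and in AG, which specifies stamens and carpels, it lay below. AG had 0.196, 0.506 and 0.361 CPM in T+ dwarf, against 0.953, 0.878 and 0.961 CPM in WT (log2 −1.39 ± 0.42, edgeR adjusted p = 0.286). AP3 had 0.257, 0.380 and 0.910 CPM in T+ dwarf and 0.140, 0.0505 and 0.154 CPM in WT. The summed floral level was 18.9 to 20.5 CPM in T+ dwarf and 16.8 to 19.5 CPM in WT, most of it SEP4, and 1 of the 16 had no count. In such whole-shoot samples, more cells of a type and more RNA per cell cannot be told apart, and the part of floral tissue in these differences was not tested.

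Jasmonate genes had positive differences in 22 of 23 (median 0.35), 0 called and 5 apart. VSP2, a storage protein induced by jasmonate, had 707, 992 and 539.7 CPM in T+ dwarf, against 261, 300.3 and 494 CPM in WT (log2 1.09 ± 0.60, adjusted p = 0.485). JAZ10, a repressor in jasmonate signalling, had 19.0, 13.2 and 13.0 CPM in T+ dwarf and 9.42, 5.72 and 7.13 CPM in WT (1.02 ± 0.45, adjusted p = 0.397). Salicylic acid defence had 0 of 20 called and a median of 0.17, which became −0.13 without T+ dwarf 3. PR1, the classic marker of this defence, had 104, 59.6 and 218 CPM in T+ dwarf, against 93.4, 73.3 and 69.8 CPM in WT. PR2, another such marker, had 770.4, 564 and 1245 CPM in T+ dwarf and 679.7, 645 and 436 CPM in WT. T+ dwarf 3 was the highest of the 6 libraries in both genes. Among salicylic genes WRKY60 lay apart, at 26.6, 23.7 and 32.2 CPM in T+ dwarf and 16.1, 17.4 and 14.5 CPM in WT (0.78 ± 0.19, adjusted p = 0.185).

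T+ dwarf 3 also led senescence genes (14 tested, median 0.42, 0 called). SAG12, a late-senescence protease, had 0, 0.0141 and 17.6 CPM in T+ dwarf and 0.00821, 5.78 and 0.0384 CPM in WT, so 1 library of each group carried it. ORE1, a NAC regulator of leaf ageing, had 5.40, 6.27 and 15.6 CPM in T+ dwarf, against 2.98, 5.81 and 3.04 CPM in WT. Aliphatic glucosinolate synthesis had 13 of 14 negative differences (median −0.23) and 0 called, and its median was −0.08 without T+ dwarf 3. IMD1, of the methionine chain-elongation steps, had 191, 179.7 and 124 CPM in T+ dwarf and 207, 278 and 266 CPM in WT (log2 −0.60 ± 0.18, adjusted p = 0.286). Flavonoid synthesis had a median of −0.29 over 14 genes and 0 called. Its regulator MYB111 had 11.5, 6.42 and 6.88 CPM in T+ dwarf, against 14.4, 18.1 and 21.8 CPM in WT (−1.13 ± 0.35, adjusted p = 0.286), and the flavonol synthase FLS1 had 41.4, 21.2 and 44.6 CPM in T+ dwarf and 64.9, 84.6 and 80.8 CPM in WT (−1.1 ± 0.37, adjusted p = 0.317). In these 2 genes all T+ dwarf samples were below WT.

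DNA methylation (17 genes, median 0.01) and the circadian clock (15 genes, median 0.11) had 0 calls. CMT3, the CHG methyltransferase, had 27.5, 30.4 and 31.3 CPM in T+ dwarf, against 35.7, 34.0 and 40.3 CPM in WT (log2 −0.30 ± 0.10, adjusted p = 0.307), and DDM1, a nucleosome remodeller, had 11.7, 12.1 and 14.2 CPM in T+ dwarf and 17.4, 16.3 and 16.8 CPM in WT (−0.41 ± 0.18, adjusted p = 0.396). Both lay lower in T+ dwarf without overlap. DCL3, a Dicer of RNA-directed DNA methylation, lay the other way, at 17.1, 15.6 and 15.4 CPM in T+ dwarf against 9.72, 15.3 and 12.1 CPM in WT (0.38 ± 0.15, adjusted p = 0.366). The clock gene RVE8 had 5.71, 5.36 and 6.58 CPM in T+ dwarf, against 4.02, 5.01 and 2.55 CPM in WT (0.61 ± 0.22, adjusted p = 0.329). Stem fibre and vessel markers had positive differences in 16 of 16 tested genes (median 0.21), with 0 called and 0 apart. They summed to 194, 179.8 and 207 CPM in T+ dwarf and 111, 194 and 191 CPM in WT, so WT 1 was the low library. Of the pollen and tapetum markers 1 of 9 was tested and of the seed markers 3 of 9, all under 2 CPM.

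**Figure D5:**
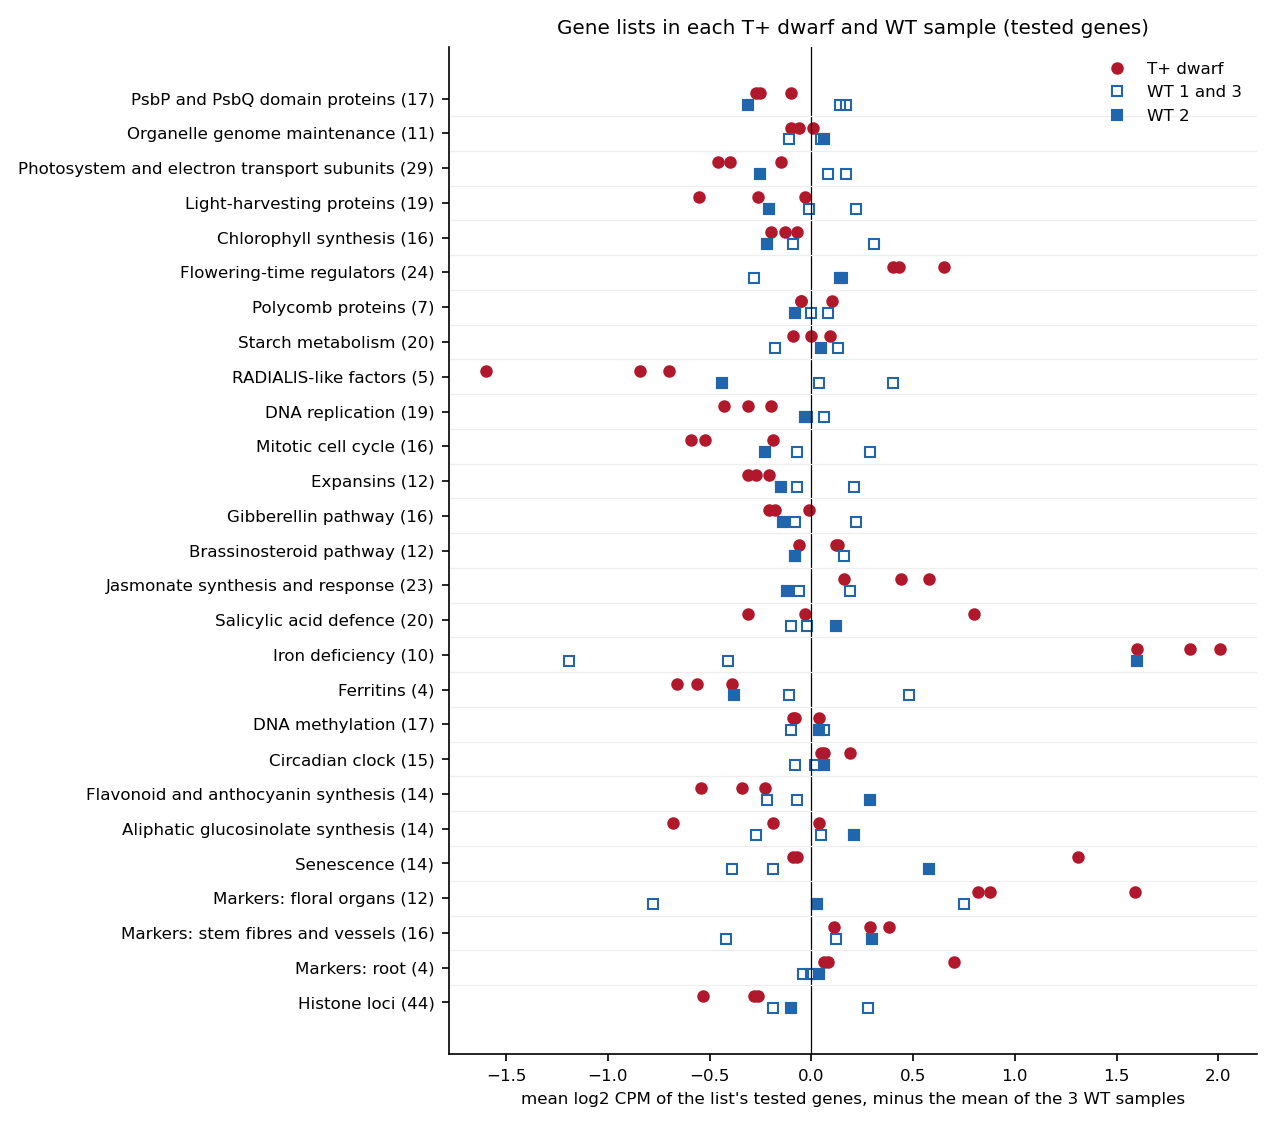
Mean log2 CPM of each gene list in each sample, minus the mean of the 3 WT samples, with T+ dwarf as red circles above WT as blue squares and WT 2 filled. T+ dwarf lies outside the WT range for flowering time, RADIALIS-like, DNA replication, expansin, histone and floral organ genes and, by a narrow margin, for ferritin, flavonoid and root marker genes, while WT 2 joins T+ dwarf at 1.60 for iron and T+ dwarf 3 reaches 1.31 for senescence.

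Of the 23 genes that neighbour or overlap the 11, 12 were tested and 0 were called, with the smallest adjusted p at 0.349. ORC6 lies 40 bases from CUL3, a cullin gene at 116, 94.7 and 108 CPM in T+ dwarf and 75.5, 93.3 and 105 CPM in WT, and 5 bases from AT1G26850, at 252 ± 4.3 CPM in T+ dwarf and 253 ± 4.63 CPM in WT (SD, n = 3 each). AT1G72125, the next transporter gene after AT1G72120, had 0.245, 0.450 and 0.875 CPM in T+ dwarf, against 0.156, 0.242 and 0.308 CPM in WT (log2 1.16 ± 0.50). CYP735A2, a cytokinin hydroxylase gene beside AT1G67105, had 0.184, 0.141 and 0.0816 CPM in T+ dwarf and 1.31, 0.848 and 0.0513 CPM in WT (−2.44 ± 0.94). AGL19's neighbours AT4G22940 and AT4G22960 averaged 1.13 ± 0.142 and 0.720 ± 0.163 CPM in T+ dwarf and 0.879 ± 0.231 and 0.491 ± 0.0702 CPM in WT (SD, n = 3 each).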

How the data were processed

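RNA of 20 shoot samples was sequenced, and 6 of them make up the comparison described. The authors deposited raw counts per gene. The submitters' processing notes name Trim Galore 0.4.1 for trimming, STAR 2.7.0a for alignment and the TAIR10 genome. Of the counting step, the program, annotation and strand setting are not stated in the labels. The kit does not mark strand, so reads where genes overlap cannot be assigned by strand. Lines without a gene (no feature, 0.776 to 0.986% of gene counts in the 6 samples, and ambiguous, 0.271 to 0.36%) were left out. Reads with more than 1 placement have a count of 0 in the files, and all plastid and mitochondrial genes stand at 0. Names and coordinates come from RefSeq TAIR10.1, which held 32548 of 34262 loci.

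All 20 samples entered 1 edgeR 4.0.16 model in R 4.3.3, with a term for each of the 6 groups, TMM scaling (0.912 to 1.05), filterByExpr at a minimum count of 10, and robust quasi-likelihood tests (14 residual degrees of freedom). Called means a Benjamini-Hochberg adjusted p under 0.05 over all 21703 tested genes. The SE of a log2 difference is its size divided by the square root of the quasi-likelihood F, intervals cover 95%, and SD is over samples. List levels use log2 CPM with a prior count of 2. Counts were also simulated for T+ dwarf against WT, with 21485 genes tested and 200 changed, all of these above 1 CPM on average. There, 73% of genes changed by 1 on the log2 scale and 94% of those changed by 2 were recovered. Of the calls, 4.57% were unchanged genes. No simulated library was set apart over a gene list as WT 2 was over the iron genes, and fewer genes were called in the real data. These rates therefore do not give the share of changes found in the real comparison.

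Named genes are all called genes, the next by p-value without overlap up to 24 in all, up to 4 by p-value in each list, all PsbP and PsbQ, RADIALIS-like and origin recognition genes, PPD3, MSH1, and neighbours of called genes. SOC1, AGL42, VSP2, PR1, SAG12, BHLH39, BHLH100, BHLH101, OPT3, NAS1, NAS4, DDM1, PETE2, SEP4 and the histone group were named after their values were seen. The members, lists and tests were chosen with earlier results of these data known. Of 428 list entries 420 were kept, and the others were dropped because the annotation does not carry their symbol at the locus. An exception was made for PsbP entries without their symbol, PPD3 among them. These were kept where the annotation's description names PsbP. Alternatives were RLE and upper-quartile scaling, no filter, a minimum count of 50, DESeq2 1.42.0, the 6 samples alone, a replicate block, no robust estimate, and leaving out each library. Samples of a group were distinct libraries (chi-square per gene 58.73 to 202.8).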

Additional observations from a re-analysis of the deposited data

Results flagged for a closer look

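Of the 11 genes called in T+ dwarf against WT, 7 also differed between T+ dwarf and T+ normal, by edgeR's test in the model of all samples. The log2 differences T+ dwarf minus T+ normal were 2.02 for AT1G75945, 1.99 for AGL19, 1.88 for AT4G33150 and 1.02 for AT1G72120. They were −0.75 for ORC6, −1.24 for RL4 and −0.87 for AT3G46320. PPD3 differed between T+ dwarf and Gen1 dwarf by 2.58 on the log2 scale. In AT3G46320 the highest of the 5 Gen2 dwarf samples, at 19.5 CPM, stood apart from the other 4 within a narrow range of 16.2 to 19.5 CPM. Chance gives such a distance in about 1 of 20 groups, and it was looked for in each of the 11 genes.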

How the results depend on the processing

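EdgeR called 11 genes in T+ dwarf against WT, of which 4 stood in the pathway lists (PPD3, AGL19, RL4 and ORC6). DESeq2 called 114 genes, 9 in the lists. With only the 6 samples 7 were called, 2 in the lists; AT3G04650, PPD3, AT1G75945, QQS and AGL19 were among them, and the other 6 of the 11 had adjusted p of 0.257 to 0.448. Leaving out 1 library gave 4 to 207 genes, and 1 to 18 in the lists. The 207 and the 18 arose without WT 2, and AT3G04650, PPD3, AT1G75945 and QQS were called in all 6 of these fits. Same-numbered samples did not deviate together (correlations of 0.000438, −0.0821 and −0.131), so numbers were taken as names. A replicate block gave 7 calls, and with only the 6 samples 2 calls, 1 of them in the lists. RLE scaling gave 11 calls, upper-quartile scaling 12, no filter 10, a minimum count of 50 gave 11 and no robust estimate 11. Direction turned in some uncalled values. Leaving out 1 library, MSH1 ran between −0.10 and 0.16 on the log2 scale against WT. Against Gen1 dwarf, AT1G75945 ran between −0.96 and 0.17, AT1G67105 between −0.61 and 0.17 and QQS between −0.12 and 0.26, all without a call. The cause of these shifts was not tested. Over all settings, 570 values of single genes kept their side and direction, 52 lost a call, 28 gained one and 8 turned. With 3 samples a group and 1 library able to move the calls from 11 to 207, the genes not called cannot be read as unchanged. No median could be had for seed markers at a minimum count of 50 or with only the 6 samples, nor for root markers at that minimum, since no member was tested.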
